A study of Mus musculus with 2 samples.

Results

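The hepatocytes of the healthy mouse liver library were examined one cell at a time, and cells with a central profile were set against cells with a portal profile. A cell was a member when it held at least 1000 UMIs (unique molecular identifiers, which count single RNA molecules), at most 30% of its UMIs in mitochondrial genes, at least 20 UMIs of Apoa1, Ttr, Fgb, Ahsg and Hpx together, and at most 2 UMIs of the endothelial genes Clec4g, Stab2 and Kdr and the biliary genes Epcam, Krt7 and Krt19 together. The members were thus chosen by measured counts, and the levels of those 11 genes are a description of the choice. The rule took 158 of the 6297 cells of the library (2.51%, exact binomial 95% interval 2.14 to 2.93), out of 5580 cells past the UMI and mitochondrial limits.

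The series holds 2 libraries of liver cells made with the 10x Genomics droplet method, 1 from healthy mice and 1 from mice given carbon tetrachloride (CCl4), a toxin that hepatocytes activate and that scars the liver. Both came from Col1a2-CreER: Rosa26-tdTomato mice on a C57BL/6 background, in which a Cre driven by the Col1a2 promoter of collagen-making cells can switch on a red reporter. The methods give an age of 8 to 10 weeks for the mice entering such experiments, and the CCl4 mice were then injected for 12 weeks, so that age is not their age when the cells were taken. The healthy mice carried the same alleles without the toxin. Livers were digested with pronase and collagenase and spun on a Nycodenz density gradient, a preparation for light non-parenchymal cells, and the methods add that CD45-positive cells were depleted with beads, so the few hepatocytes here are those that passed these steps. With 1 library a group no difference has a replicate check, no test was made, and every interval covers counting error only. The libraries shared 10 cell barcodes.

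Hepatocytes line the liver lobule between the portal vessels, where nutrient-rich and oxygen-rich blood enters, and the central vein, where it leaves. Cells near the portal vessels are known for making glucose, breaking down amino acids and running the urea cycle, while those around the central vein oxidise drugs and toxins with cytochrome P450 enzymes and trap the remaining ammonium as glutamine. Wnt signals from the central vein endothelium are known to maintain the central programme.

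The members had between 1084 and 69174 UMIs (median 5270) and between 591 and 6308 genes (median 1685.5). Levels are given as CPM, in which every cell's UMIs are scaled to the same total, averaged so that every cell weighs the same. Their most abundant nuclear-encoded transcript was Alb, which codes for serum albumin, with a mean of 22672 CPM and a range over cells of 525 to 86412 CPM (median 11977). Apoa2 and Apoc1, 2 apolipoproteins of circulating lipid particles, stood at 15938 and 13428 CPM, and Mup3, a major urinary protein carried by the blood, at 10483 CPM. All 4 were detected in each of the 158 cells. In 3319 cells of the same library that carried the endothelial genes, used here as a reference for transcripts free in the droplets, Alb stood at 895.5 CPM and Apoa2 at 432.4 CPM. The class genes, high by the rule itself, had Ttr at 8630 against 231.8 CPM and Apoa1 at 4464 against 127.5 CPM.

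The 23 cells just inside the minimum, with 20 to 24 UMIs of the 5 genes, had a median of 18237 CPM of the cytosolic enzymes Ass1, Bhmt and Gnmt together, and the 23 cells just outside, with 15 to 19 UMIs, had 20611 CPM. At the gate, the 16 members with 2 UMIs of its genes had 6224 CPM of these enzymes and the 5 cells with 3 UMIs 8154 CPM. In all, 936 cells held at least 20 UMIs of the 5 genes but more than 2 of the gate genes, 908 of them by the biliary genes alone, and their median of those 3 enzymes was 75.6 CPM. The 1328 biliary reference cells of the library held 5309 CPM of Alb.

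Markers of other cell types were scarce in the members. The 11 endothelial markers summed to 257.6 CPM against 20200 CPM in the endothelial reference, and 95 of their 293 UMIs lay in 1 member with 15223 UMIs, which had only 28 UMIs of the 5 class genes and more endothelial than class transcripts. That cell had 4 UMIs of the genes that define the zones and entered no contrast below. The 8 biliary markers summed to 259.8 CPM against 28163 CPM in the biliary reference. Of the 9 macrophage markers 3 were at 0 and the rest had 7 UMIs, and all 6 lymphocyte, 4 neutrophil and 4 red cell markers were at 0. Central and portal cells, defined below, had sums of 107.2 and 87.1 CPM for the endothelial and 221.5 and 185.8 CPM for the biliary markers. Xist, the RNA of the inactive X chromosome, was at 0 in every member, and 74 members had a UMI of a Y-linked gene.

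Members fell into cells rich and poor in mitochondrial transcripts. In 49 cells the mitochondrial share was at least 10% (median 18.8%), and these were deep, with a median of 34496 UMIs. The other 109 had a median share of 0.854% and 4185 UMIs, and 61 of them stood under 1%. Malat1, an RNA kept in the nucleus, was absent from 49 of the 109 cells and at most 3 UMIs in 104, against 3 and 10 of the 49 mitochondria-rich cells. These UMI counts also follow depth. Scaled to depth, its mean was 1754 against 3854 CPM and its median 137.8 against 1577 CPM. The cells poor in mitochondrial transcripts held more cytosolic messages. Bhmt, which remethylates homocysteine, stood at 10202 against 3898 CPM, Gnmt, which spends methyl groups on glycine, at 3993 against 1311 CPM, and the iron store Ftl1 at 13000 against 3620 CPM. They held less Alb, at 14332 against 41224 CPM.

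**Figure D1:**
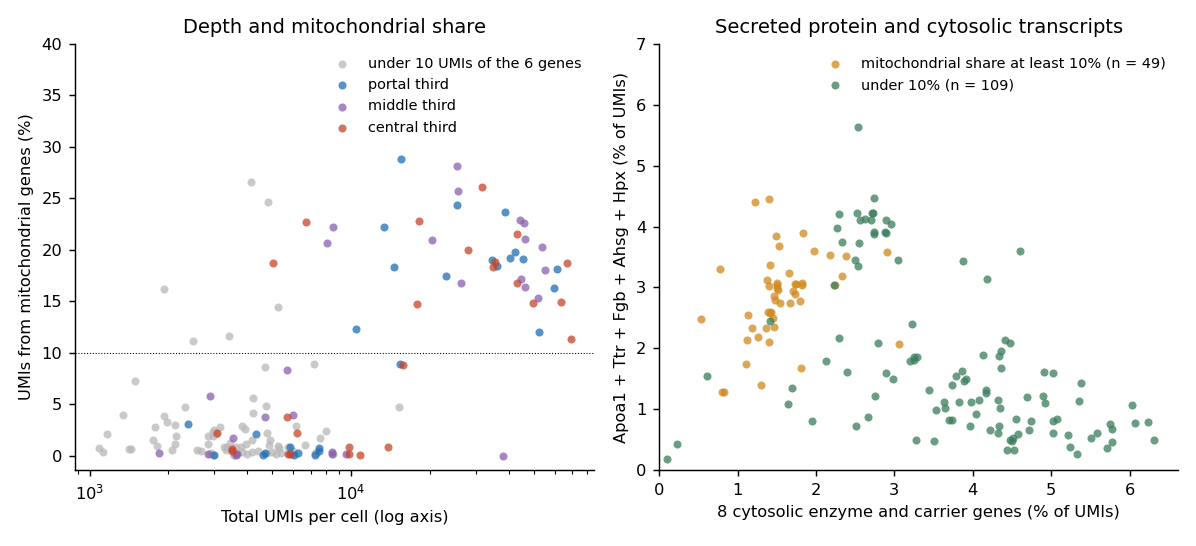
Left, mitochondrial share (percent of UMIs) against total UMIs (log axis) for each of the 158 members, coloured by zone, with a dotted line at 10%. Right, the summed share of the 5 class genes against that of 8 cytosolic genes (Ass1, Asl, Arg1, Bhmt, Gnmt, Fbp1, Hpd and Fabp1). The 49 cells above the line reached 69174 UMIs and held at most 3.06% of cytosolic transcripts, while the 109 below it reached 6.31%.

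These secreted and cytosolic shares also parted the poorer cells among themselves. In 31 of the 109 the 5 class genes made up at least 2% of UMIs (median 3.88%), and in the other 78 less (median 0.998%). The 78 cells had a median of 4.27% of UMIs in the 8 cytosolic genes and the 31 cells 2.73%. The mitochondria-rich cells had 1.496%. The part of RNA quality in these differences was not tested.

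The zones were read from 6 genes. On the central side stood Cyp2e1 (ENSMUSG00000025479), a P450 that oxidises alcohol and CCl4, Glul (ENSMUSG00000026473), glutamine synthetase, and Oat (ENSMUSG00000030934), ornithine aminotransferase. On the portal side stood Cyp2f2 (ENSMUSG00000052974), a P450 of the portal cells, Sds (ENSMUSG00000029597), which turns serine to pyruvate, and Hal (ENSMUSG00000020017), the first step of histidine breakdown. In 80 members these genes had at least 10 UMIs together, and the central share, the part of those UMIs from the central genes, could be read. It was at most 10% in 45 cells and at least 90% in 27, and only 8 cells lay between. Central genes alone were seen in 14 cells and portal genes alone in 31.

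Of the 8 cells between, 7 were rich in mitochondrial transcripts, with 5033 to 55062 UMIs. The cell with the most even mix held 45890 UMIs, with 47 UMIs of Cyp2e1, 41 of Cyp2f2, 27 of Hal and 6 of Sds. Another held 46092 UMIs, with 68 of Cyp2e1, 14 of Cyp2f2 and 10 of Hal. None of the 8 was among the 249 cells with the highest doublet scores in the library, of which 2 were members.

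**Figure D2:**
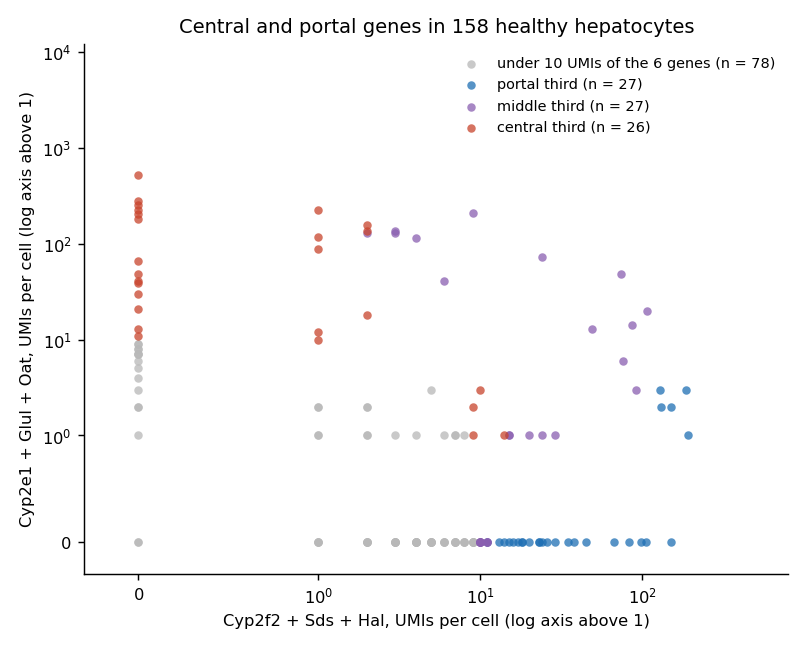
UMIs per cell of the 3 central genes (vertical) against the 3 portal genes (horizontal), both on a log axis above 1, for the 158 members. Most cells lie along an axis, with 31 of the 80 readable cells at 0 central and 14 at 0 portal UMIs, and 8 lie between shares of 10% and 90%.

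To hold depth fixed, the 80 cells were ranked by central share and cut into 3 parts inside each of 3 bands of total UMIs. This gave 27 portal, 27 middle and 26 central cells with 15, 14 and 14 mitochondria-rich cells. The portal cells had a median of 14556 UMIs, a mitochondrial share of 12.3% and central shares of 0 to 2.27%. The central cells had a median of 14806.5 UMIs, a mitochondrial share of 13.1% and central shares of 6.67 to 100% (median 100%). The central group is a rank within depth and not pure, since 4 shallow cells in it, of 3508 to 6232 UMIs, had more portal than central UMIs. The other 78 members had under 10 UMIs of the 6 genes, 72 of them poor in mitochondrial transcripts, and were left out of the contrast.

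The 6 genes themselves describe the split. Cyp2e1 had a UMI in 25 of 26 central cells (0 to 7026 CPM, median 2385) and in 1 of 27 portal cells. Oat had one in 21 central cells (0 to 11640 CPM, median 281.7) and 1 portal cell. Glul had one in 17 central cells (0 to 8388 CPM, median 82.2) and 4 portal cells, and a single cell gave 65.4% of its central mean. That cell, with 5842 UMIs, had 49 UMIs of Glul and 68 of Oat but 1 of Cyp2e1 and 1 of Cyp2f2, and its mitochondrial share was 0.137%. Without it the central mean of Glul was 177.2 CPM in place of 493.0. Glul and Oat were also seen outside hepatocytes: 65.5% and 29.0% of the endothelial reference cells had a UMI of them, at a mean of 273.6 and 57.2 CPM and a median depth of 6214 UMIs.

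On the portal side Cyp2f2 was seen in 25 of 27 portal cells (0 to 4354 CPM, median 1469) and 4 of 26 central cells. Sds (96.2 to 2981 CPM, median 534.7) and Hal (192.3 to 1686 CPM, median 637.8) were seen in every portal cell, in 4 and 10 central cells, and in 3.40% and 3.01% of the endothelial reference cells. The ranges of all 6 genes overlapped between central and portal cells. Reading each gene under a split it did not enter kept its side. With cells ranked by Cyp2e1 and Cyp2f2 alone (15 central and 18 portal cells), Glul was 10.3-fold higher in central cells (5.08 to 23.3), Oat 352-fold (62.3 to 14016) and Hal 49.8-fold higher in portal cells (24.3 to 120.8), and Sds had 0 UMIs in central and 201 in portal cells. With cells ranked by Glul, Oat, Sds and Hal (15 and 17 cells), Cyp2e1 was 38.01-fold higher in central cells (26.9 to 55.4) and Cyp2f2 4.90-fold higher in portal cells (3.86 to 6.30).

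The stretch of 250 bases before the start of 2 central and 2 portal genes is shown to set genes with opposite zones side by side, from RefSeq on build GRCm38.p6 and all on the plus strand. Capitals mark TATAAA, the TATA box, and CTTTGNT, the core bound by the TCF/LEF factors of the Wnt pathway, both searched on both strands. Cyp2e1 is at chr7:140763569-140763818, Cyp2c29, the gene with the widest central difference outside the split, at chr19:39286835-39287084, Cyp2f2 at chr7:27119705-27119954 and Hal at chr10:93488518-93488767.
Cyp2e1: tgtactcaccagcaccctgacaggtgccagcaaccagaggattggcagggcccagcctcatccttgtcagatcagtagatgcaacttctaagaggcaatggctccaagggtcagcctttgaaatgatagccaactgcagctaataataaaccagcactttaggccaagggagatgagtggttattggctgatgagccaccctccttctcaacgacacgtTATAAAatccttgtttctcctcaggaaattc
Cyp2c29: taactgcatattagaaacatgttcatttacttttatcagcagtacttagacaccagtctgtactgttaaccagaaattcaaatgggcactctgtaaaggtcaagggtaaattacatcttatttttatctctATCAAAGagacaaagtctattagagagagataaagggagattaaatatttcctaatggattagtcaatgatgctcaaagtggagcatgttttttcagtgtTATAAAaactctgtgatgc
Cyp2f2: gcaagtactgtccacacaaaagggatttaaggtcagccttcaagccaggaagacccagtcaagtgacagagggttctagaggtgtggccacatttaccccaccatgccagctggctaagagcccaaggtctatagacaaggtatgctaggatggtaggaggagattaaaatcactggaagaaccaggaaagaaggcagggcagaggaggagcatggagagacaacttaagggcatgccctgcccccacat
Hal: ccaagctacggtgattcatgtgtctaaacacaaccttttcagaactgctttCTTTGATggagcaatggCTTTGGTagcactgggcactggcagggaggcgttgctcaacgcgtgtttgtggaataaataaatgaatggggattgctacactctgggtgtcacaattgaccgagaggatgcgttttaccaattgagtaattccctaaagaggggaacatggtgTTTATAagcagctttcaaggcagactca
The TCF/LEF letters occurred once before Cyp2c29 and at 2 places before Hal, a portal gene, and not in the other pair. Over all 32851 promoters of the table, 15.98% held CTTTGNT and 12.4% TATAAA in a stretch of this length. Counted by gene, 18.1% of its 27025 genes had a promoter with CTTTGNT. Of the genes at least 2-fold higher in central cells, 172 of 212 were in the table and 16.9% of them had a promoter with CTTTGNT, against 12.7% of the 134 portal genes matched and 15.2% of the 2033 matched among all genes counted. These are matches of letters and not sites.

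Genes outside the split then described the zones. A gene was counted when its mean reached 50 CPM in central or portal cells, and called when its means differed at least 2-fold, with a value under 3 UMIs raised to that floor. Of 2507 genes counted, 212 were called in central cells (8.46%) and 157 in portal cells (6.26%), and the median log2 ratio of central over portal over all of them was 0.06. The counting interval lay away from equality for 156 of the 212 and 105 of the 157. The middle cells had a level between the outer groups for 157 of the 212 central and 115 of the 157 portal genes. Those middle cells were mixed, with central shares of 0 to 98.5% (median 6.25%), 20 of the 27 under 50% and 5 over 90%. A mean between the ends can come from such a mix, so these counts do not show a graded middle zone. No called gene had ranges over cells that were apart. Sparse counts largely fixed that outcome, since the called genes had medians of 64 (central) and 53 (portal) UMIs over both outer groups. Only 7 of the 212 and 3 of the 157 had a UMI in every cell of their higher group.

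Of the 15 genes furthest to the central side 4 were P450s. Cyp2c29, a P450 of drug and fatty acid oxidation, had a UMI in 19 of 26 central cells (0 to 2759 CPM, median 579.7), 10 of 27 middle cells and 1 of 27 portal cells. Its mean was 907.5 against 1.21 CPM, 753-fold higher in central cells (207 to 6236), resting on 2 portal UMIs. Cyp2c50 stood at 736.1 against 13.6 CPM, 54.2-fold (32.3 to 98.2), and Cyp2c37 at 154.1 against 3.48 CPM, 44.2-fold (15.4 to 190.5). Cyp1a2, which oxidises caffeine and many aromatic toxins, stood at 478.1 against 11.4 CPM, 41.9-fold (23.95 to 80.5), with 202.2 CPM in the middle cells. The Cyp2c genes are close copies, and how reads were shared among them was not checked.

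Of 15 counted genes of the cytochrome P450 and partner list, 7 were called central and none portal, against backgrounds of 8.46% and 6.26%. Besides those named, Cyp2c54 was 7.45-fold higher (4.90 to 11.6), Cyb5a, the cytochrome b5 that passes electrons to P450s, 2.39-fold (2.10 to 2.73), and Cyp2a5 had 98.1 CPM in central cells and 0 UMIs in portal cells. The list was not uniform. Cyp3a11, the main drug-clearing P450 of the mouse liver, stood at 1533 against 954.7 CPM, 1.61-fold (1.39 to 1.86), and Cyp2a12, Cyp2d26, Cyp3a13, Cyp3a25 and Cyp4a10 had a higher mean in portal cells, by 1.30-fold to 1.68-fold.

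Conjugation genes, which attach water-soluble groups to drugs, had 5 of 12 called central and none portal, against 8.46% and 6.26% of all genes. The glutathione transferases Gstm1 (1591 against 350.9 CPM, 4.53-fold, 3.49 to 5.97) and Gsta3 (3672 against 1253 CPM, 2.93-fold, 2.53 to 3.41) were among them, as was the glucuronidating enzyme Ugt2b1 (3.96-fold, 2.67 to 6.02). Gstp1 (1.47-fold) and Sult2a8 (1.74-fold) stayed under the limit.

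Outside these lists the leading central genes were of several kinds. Lect2, a secreted hepatocyte factor, had a UMI in 20 central cells and 1 portal cell (286.1 against 0.603 CPM). Gulo, the last enzyme of vitamin C synthesis, stood at 359.6 against 3.84 CPM, 93.7-fold (35.5 to 353). Rgn, the calcium-binding regucalcin, which acts in the same pathway, stood at 1700 against 87.9 CPM, 19.3-fold (10.8 to 38.6). Tsc22d1, a transcriptional regulator, was 24.05-fold higher (11.4 to 56.9), at 150.2 CPM, and stood at 185.6 CPM in the endothelial reference. Hsd3b5, a steroid dehydrogenase of male liver, was seen in 18 central cells (105 UMIs, 172.7 CPM) and in no portal cell, a log2 ratio of 3.82 with the portal value raised to the floor.

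Major urinary protein genes parted by member. Mup11 stood at 8285 against 315.2 CPM, 26.3-fold (21.8 to 32.0), over a range of 0 to 34536 CPM in central cells. Mup17 stood at 2889 against 36.2 CPM, with 1 cell giving 33.0% of the central mean, and Mup18 was seen in 9 central cells and 1 portal cell. Mup3 stood at 11639 against 11580 CPM (0.954 to 1.06 for the ratio), and Mup20 was 1.29-fold higher in central cells (1.21 to 1.37). With the mitochondria-rich cells alone split anew, Mup20 lay on the portal side, at a central over portal ratio of 0.874 (0.823 to 0.927). The Mup genes are close copies, and how reads were assigned among them was not checked, so the split between them is uncertain. All 21 Mup genes together made a median of 3.11% of UMIs in central, 2.41% in middle and 1.46% in portal cells.

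The interferon-response genes Ifit1, Cmpk2 and Rsad2 also ranked among the leading central genes, but through 1 cell. That cell, with 43121 UMIs, 250 central and 0 portal UMIs, held 163 UMIs of Rsad2, 70 of Cmpk2 and 130 of Ifit1, against 1, 3 and 20 in all other members together. It also held 58 UMIs of the chemokine Cxcl10, against 9 in the others. Without it the central mean of Ifit1 was 9.67 CPM and those of Cmpk2 and Rsad2 were 0.

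**Figure D3:**
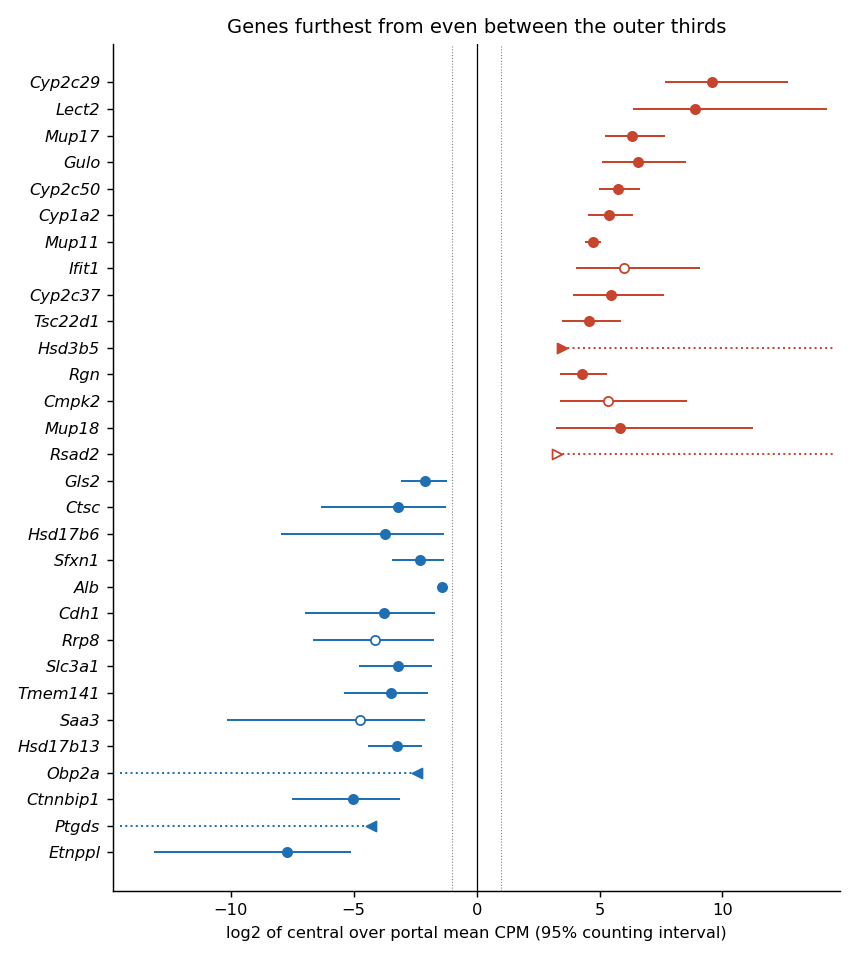
Log2 ratio of central over portal mean CPM for the 15 genes furthest to each side by the nearer bound of their 95% counting interval (lines). Triangles with dotted lines are bounds where the other group had 0 UMIs, open symbols mark genes with over 70% of the mean in 1 cell (Ifit1, Cmpk2, Rsad2, Saa3 and Rrp8), and dotted verticals mark a 2-fold difference.

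On the portal side Etnppl, which breaks down phosphoethanolamine, had a UMI in 21 of 27 portal cells (0 to 335.3 CPM, median 74.6), 14 middle cells and 1 of 26 central cells, with means of 121.7 against 0.573 CPM, 212-fold (35.2 to 8669). Hsd17b13, a lipid droplet dehydrogenase, had one in 25 portal cells (0 to 1677 CPM, median 361.1) and 10 central cells (0 to 198.7 CPM, median 0), 9.47-fold higher in portal cells (4.80 to 21.1). Cdh1, the epithelial cadherin, had one in 17 portal and 2 central cells, 13.7-fold (3.33 to 122), and Ctsc, a lysosomal protease, in 18 and 1, 9.25-fold (2.44 to 78.3). Ptgds, a prostaglandin synthase, and Obp2a, a lipocalin, were seen in 17 and 11 portal cells and in no central cell.

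Sfxn1, which carries serine into mitochondria, was 4.94-fold higher in portal cells (2.56 to 10.6), Gls2, the liver glutaminase, 4.25-fold (2.37 to 8.19), and Slc3a1, a subunit of a cystine carrier, 9.25-fold (3.61 to 26.6). Saa3, an acute phase apolipoprotein, and Rrp8, a nucleolar protein, were called through 1 portal cell each, which gave 71.4% and 80.7% of the mean.

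Genes known for either zone and not used in the split stood mostly on the side of that zone. The lists were chosen with earlier results of these data known, so this is a description and no independent check. Over all counted genes 8.46% were called central and 6.26% portal. Of 15 counted genes of the other pericentral list 14 were called central and none portal, with a median log2 ratio of 3.004, against 0.06 over all genes. Akr1c6, a steroid reductase, was 7.16-fold higher (5.87 to 8.78), Slco1b2, an organic anion carrier, 3.76-fold (2.999 to 4.76), and Aldh1a1, which makes retinoic acid, 2.76-fold (2.20 to 3.47). Cyp3a11 was the gene that stayed under 2-fold. Of 20 counted genes of the other periportal list 13 were called portal and none central, with a median of -1.41. The 7 under the limit were Ass1, Asl, Cps1, Fbp1, Gldc, Otc and Arg1, of which 5 belong to the urea cycle.

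**Figure D4:**
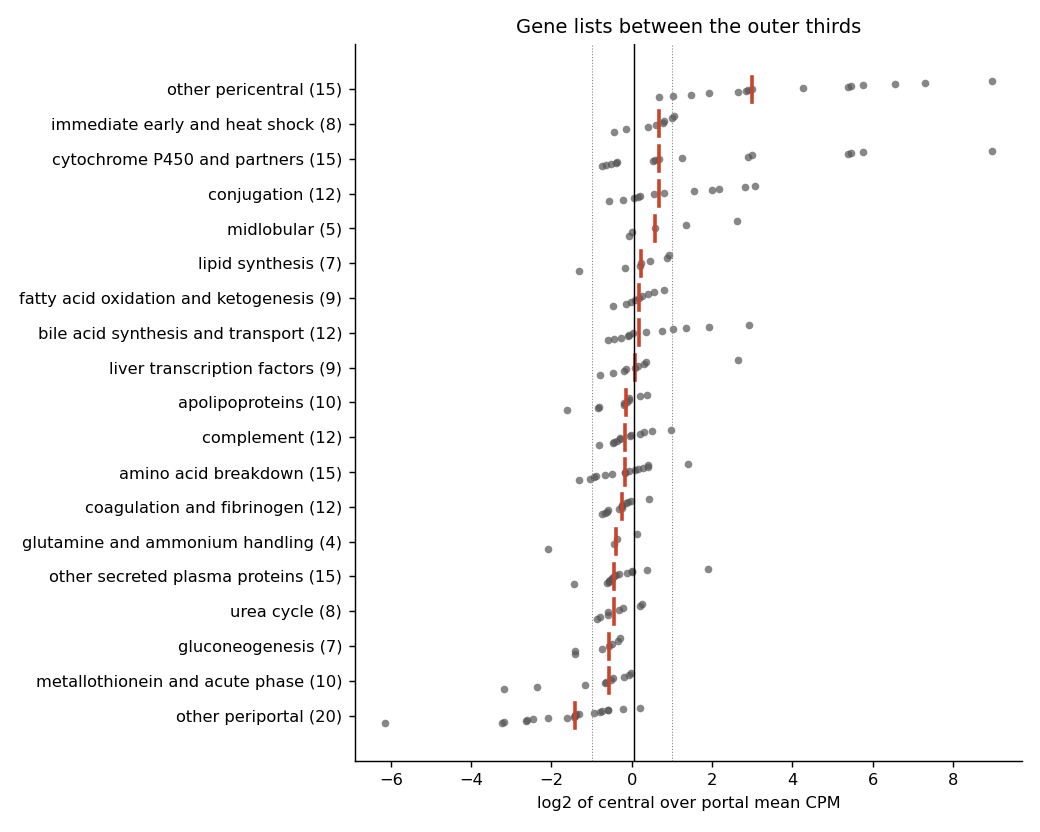
Log2 ratio of central over portal mean CPM for each counted gene of 19 lists (points), with the list median (red bar) and the number of genes in brackets. The black line is the median of all counted genes (0.06) and dotted lines mark 2-fold; the medians run from 3.004 for other pericentral to -1.41 for other periportal genes.

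Of 7 counted genes of glucose making 2 were called portal and none central, against 6.26% and 8.46% of all genes. Pck1, which commits oxaloacetate to glucose, stood at 1095 CPM in portal cells (137.4 to 2555), 958.0 in middle cells and 411.8 in central cells (0 to 1444), 2.66-fold higher in portal cells (2.06 to 3.46). G6pc, which releases free glucose, was 2.67-fold higher (1.93 to 3.69). Fbp1 (1.66-fold, 1.37 to 2.02), Tat (1.41-fold, 1.11 to 1.80) and Pcx (1.22-fold, 0.829 to 1.82) had a higher portal mean under the limit, and the interval of Pcx held equality.

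None of the 8 urea cycle genes was called, and the median log2 ratio was -0.45. With 8.46% of all genes called central and 6.26% portal, 0 of 8 is near the background. Ass1, which joins citrulline to aspartate, stood at 4349 CPM in portal cells (1074 to 12706), 3418 in middle and 2505 in central cells (0 to 8247), 1.74-fold (1.54 to 1.95). Asl and Cps1, the ammonium-fixing entry step, were 1.502-fold (1.12 to 2.03) and 1.501-fold higher (1.29 to 1.75), and Arg1 1.17-fold (0.942 to 1.46). Otc was 1.15-fold higher in central cells (0.912 to 1.44). The interval of Ass1, Asl, Cps1 and Slc25a13 (1.82-fold, 1.02 to 3.19) lay on the portal side, and that of the other 4 held equality.

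Of 4 counted genes of ammonium handling 1 was called, against 8.46% (central) and 6.26% (portal) of all genes, too few genes to describe the list. It was Gls2, named above, which was portal, and glutamine synthetase was a gene of the split. Glud1 (1.09-fold central), Slc38a3 (1.29-fold portal) and Slc38a4 (1.36-fold portal) had intervals that held equality. Slc1a2, a glutamate carrier of the innermost central cells, had 0 UMIs in all 3 groups and 1 UMI in 158 members, and Rhbg, an ammonium carrier, had 5 UMIs in 4 central cells and 1 in a portal cell.

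Of 15 counted genes of amino acid breakdown 1 was called central and 2 portal, against 8.46% and 6.26% of all genes. Uroc1, the step after Hal, was 2.47-fold higher in portal cells (1.62 to 3.84), Ftcd, the last step of histidine breakdown, 2.07-fold (1.35 to 3.25), and Prodh, proline dehydrogenase, 2.65-fold higher in central cells (1.43 to 5.12). The other 12 stayed under 2-fold, among them Bhmt (7598 against 7181 CPM) and the tryptophan-degrading Tdo2 (1097 against 1155 CPM).

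Among 15 other secreted plasma proteins 1 was called on each side, against 8.46% and 6.26% of all genes, and the median log2 ratio was -0.45. Alb stood at 43884 CPM in portal cells (3198 to 86412, median 48290), 38038 in middle cells and 16281 in central cells (525 to 57912, median 13110), 2.70-fold higher in portal cells (2.61 to 2.78). Serpina6, the cortisol carrier, was 3.75-fold higher in central cells (2.04 to 7.30). All 12 coagulation genes and all 12 complement genes counted stayed under 2-fold, with medians of -0.25 and -0.17. Kng1 (1.67-fold portal, 1.44 to 1.93) and C3 (1.76-fold portal, 1.59 to 1.95) went furthest to the portal side, and Mbl1 (1.97-fold central, 1.39 to 2.80) furthest to the central side.

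The apolipoproteins had 1 of 10 called, Apoa4 (3.05-fold portal, 1.84 to 5.07), against 6.26% of all genes. Of the class genes, Hpx was 2.08-fold higher in portal cells (1.90 to 2.28) and the other 4 stayed under 2-fold. Apoc3 stood at 11166 against 6212 CPM and Apoa5 at 723.7 against 407.9 CPM in portal and central cells, both under 2-fold, and Apoa2, Apoc1 and Apoe lay within 1.14-fold of equality.

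Bile acid genes had 4 of 12 called central and none portal, against 8.46% and 6.26%. They were the carriers Slco1b2 and Slco1a1 (7.54-fold, 4.63 to 12.8) and the synthesis enzymes Cyp8b1 (2.56-fold, 1.58 to 4.17) and Cyp27a1 (2.02-fold, 1.34 to 3.097). Cyp7a1, the rate-limiting enzyme, fell short of 50 CPM but had a UMI in 11 central cells and 1 portal cell. Slc10a1, the main bile acid uptake carrier, stood at 387.0 against 381.2 CPM (0.760 to 1.36 for the ratio).

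None of 9 counted genes of fatty acid oxidation and ketogenesis was called, with a median log2 ratio of 0.19. Of 7 lipid synthesis genes 1 was called, against 8.46% and 6.26% of all genes on the central and portal side. It was Acly, 2.49-fold higher in portal cells (1.199 to 5.57). Scd1, a fatty acid desaturase, was 1.91-fold higher in central cells (1.54 to 2.38).

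Of 5 midlobular genes, Hamp2 and Cyp8b1 were called central and none portal, against the same shares. Hamp, the iron hormone hepcidin, stood at 3394 CPM in central, 3213 in middle and 3537 in portal cells, and was seen in 24, 25 and 25 of them. Hamp2, its close copy, stood at 454.1, 403.4 and 73.6 CPM, and 1 cell gave 95.8% of the portal value. The middle value also leaned on 1 cell at 8366 CPM, with a UMI in 7 of 27 cells and a median of 0. Without the top cell in each outer group Hamp2 stood at 338.6 in central and 3.20 CPM in portal cells. Igfbp2 (248.4, 225.3 and 166.2 CPM) had an interval that held equality (1.49-fold, 0.956 to 2.36).

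Of 18 liver transcription factors 9 were counted and 1 called, Nr1i3, the drug sensor CAR, 6.23-fold higher in central cells (2.75 to 15.3), against 8.46% of all genes. Cebpb stood at 212.5 against 201.9 CPM, and Hnf4a, a master factor of hepatocytes, stood at 80.7 against 140.0 CPM (0.576-fold, 0.306 to 1.06). None of the 9 Wnt target genes reached 50 CPM. Tbx3 had a UMI in 11 central, 4 middle and 0 portal cells, Lgr5 in 4, 0 and 0, Axin2 in 2, 4 and 0, and Notum in 7, 9 and 0. For 0 of 27 portal cells the exact binomial upper limit is 12.8%.

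Of 8 counted immediate early and heat shock genes, which dissociation is known to raise, Jun (2.08-fold, 1.48 to 2.98) and Egr1 (2.004-fold, 1.499 to 2.70) were called central and none portal, against 8.46% and 6.26%. Zfp36 had the higher mean in portal cells (1.37-fold, 0.883 to 2.06), as had Fos (118.8 against 107.2 CPM), and the list median of 0.68 was 0.35 in the mitochondria-rich cells. Jun stood at 1762 CPM in the endothelial reference, against 217.9 in central and 104.5 in portal cells. Among 10 metallothionein and acute phase genes, read against 6.26%, Saa2 (5.15-fold, 1.92 to 19.2), Saa3 and Orm2 (2.24-fold, 1.40 to 3.67) were called portal, and Mt1 was even (239.7 against 241.9 CPM).

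Within the 49 mitochondria-rich cells alone, split anew with 13 central and 15 portal cells at the ends, 2247 genes were counted. Of these 190 were called central and 75 portal, and 90 and 38 of those were among the 212 and 157 above. The median log2 ratio was 3.81 for the other pericentral and -1.28 for the other periportal list. With at most 10% mitochondrial transcripts (12 central and 13 portal cells) the medians were 2.05 and -0.88. In 1 draw of 1000 UMIs from each cell, 1657 genes were counted, and 41 of the 212 central and 16 of the 157 portal genes were called again. In that draw 11 of the portal genes had the other sign, and the medians were 1.46 and -0.67.

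Depth and mitochondrial content moved together, and genes differed with them. Between the 52 deepest and 53 shallowest members (medians of 33021 and 2888 UMIs, and mitochondrial shares of 18.1% and 0.938%), 244 of 2688 counted genes were at least 2-fold higher in the deepest (9.08%) and 613 in the shallowest (22.8%), with mitochondrial genes left out of these counts. Cyp2c29 stood furthest to the deep side (559.8 against 7.34 CPM, the latter 1 UMI). Of the 10 genes furthest to that side 8 were mitochondrial, with mt-Co1 at 24548 against 2850 CPM and mt-Nd5 at 1559 against 117.9 CPM. The other was Cyp1a2 (334.0 against 17.8 CPM), and 11 of 13 counted other pericentral genes were called deep. On the shallow side Sult2a7 (52.6 against 2.21 CPM, from 8 and 5 UMIs) and Ptgds (231.7 against 32.8 CPM) stood furthest. The most abundant of the 10 were the ferritin genes Ftl1 (13672 against 4243 CPM) and Fth1 (13231 against 4308 CPM) and the ribosomal Rps2 (3738 against 1256 CPM). Depth and mitochondrial content were not separated, since even the deeper of the mitochondria-poor cells had a lower median depth than the 49 rich cells (34496 UMIs). The 25 cells with under 10% mitochondrial transcripts and 6060 to 38229 UMIs (median 8031) had medians of 10215 CPM of Bhmt and 7720 CPM of Alb. All 109 poor cells, which include them, had 9568 and 7333 CPM, and the 49 rich cells 3734 and 45175 CPM.

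The same rule applied to the CCl4 library took 63 of 8460 cells (0.745%, 0.573 to 0.952), with a median of 3004 UMIs against 5270 and 2 cells against 49 with a mitochondrial share of at least 10%. In all 63 together the central genes had 70 UMIs and the portal genes 52, 21 cells had none, and 1 cell reached 10, so no zones could be read. In the healthy members Cyp2e1 had a mean of 645.0 CPM (607.4 to 684.2) and in the CCl4 members 110.9 (67.0 to 172.8). Cyp2f2 stood at 579.1 (526.0 to 636.1) against 12.3 CPM (0.711 to 56.0), the latter from 2 UMIs, and Hal at 368.5 (322.6 to 419.1) against 20.7 CPM (4.98 to 56.3). Sds stood at 533.1 (473.4 to 598.4) against 191.9 CPM (132.8 to 268.2). Oat stood at 203.6 (175.2 to 235.2) against 62.5 CPM (29.2 to 116.8). Ttr, a gene of the rule, stood at 8630 and 14415 CPM.

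Pck1 stood at 832.3 CPM in the healthy and 56.9 in the CCl4 members and Cps1 at 535.6 and 134.7, and Alb stood at 22672 and 7916 and Cyp3a11 at 780.2 and 101.4. Cyp1a2 stood at 122.8 (109.7 to 137.1) and 409.2 CPM (316.3 to 520.8) and Cyp2c29 at 200.1 (183.6 to 217.7) and 183.2 CPM (121.1 to 265.8). Col1a1, the collagen gene of scar-forming cells, had 1 UMI in the healthy and 382 in the CCl4 members, in 26 of the 63 cells, and the gate reads no gene of such cells. Depth, mitochondrial content, age, library and injury cannot be told apart between these 2 libraries.

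**Figure D5:**
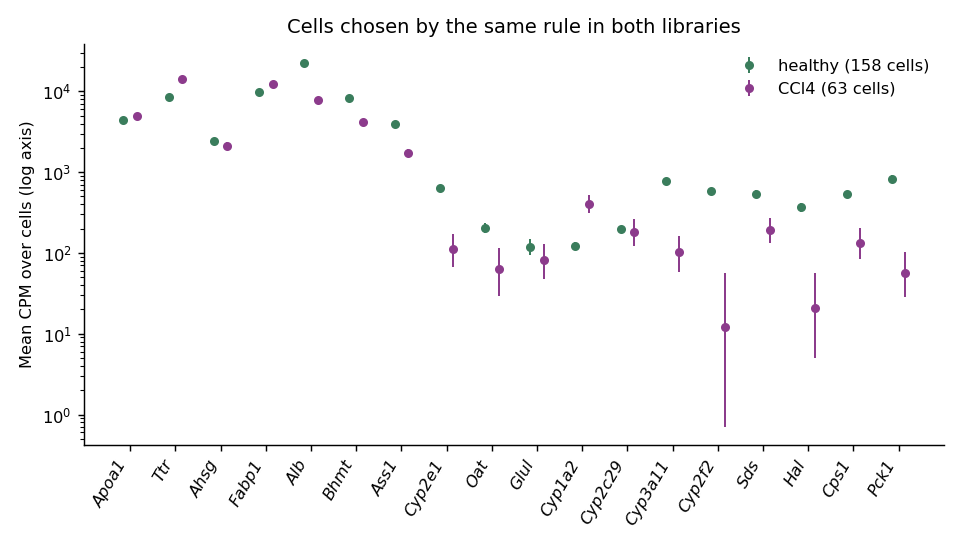
Mean CPM over cells (log axis) with 95% counting intervals for 18 genes in the 158 healthy and 63 CCl4 cells chosen by the same rule. The 3 portal genes and Pck1, and also the central-side Cyp2e1, Oat and Cyp3a11, stand lower in the CCl4 cells, Cyp1a2 stands higher, and the intervals of Cyp2c29 overlap.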

How the data were processed

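Liver cells of 2 libraries, 1 healthy and 1 CCl4, were measured by 10x Genomics single-cell RNA sequencing. The deposited values are raw UMI counts per gene and cell, made by the authors with Cell Ranger 3.1.0 (healthy) and 6.0.1 (CCl4) per the file headers. The submitters' processing notes name builds GRCh38 and mm10, and the gene identifiers in both files are mouse. Counts were read with Python 3.11.15, pandas 2.3.3, numpy 2.4.6 and scipy 1.17.1, and doublets were scored with scanpy 1.11.5 (Scrublet) and kept.

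Members and gene lists were chosen with earlier results of these data known. Cells were ranked by the central share of the 6 split genes inside 3 bands of total UMIs and cut into 3 zones. Levels were per-cell CPM averaged with equal weight, ratios carried 95% counting intervals, and genes at 50 CPM or more in either outer zone were counted. Named genes were the 15 furthest on each side by the bound nearest equality, the 6 split genes, the urea cycle and ammonium lists, up to 4 of the most abundant genes of each other list, the 10 most abundant genes, and 10 on each side by depth. Others named from the lists were chosen after their values were seen. Contrasts were checked on simulated data in which the cells of a group differed by counting error only. The real cells varied more, so that check does not cover their spread. Alternatives changed the cell rule, weighting, depth, split and filter. Values of a few genes are not reported here.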

Additional observations from a re-analysis of the deposited data

How the results depend on the processing

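The class held 75 cells when the 5 genes had to make up at least 2% of UMIs, 105 at 40 or more of their UMIs and 93 with 0 gate UMIs. Against 212 central and 157 portal genes, the sum of all UMIs gave 119 and 68, and 2 zones in place of 3 112 and 92. A minimum of 20 CPM gave 665 and 477, one of 200 CPM 50 and 27, and leaving out the deepest cells 343 and 299. The genes counted changed too, from 2507 in the main split to 2277, 2428, 4734, 774 and 2703 in that order. Portal genes alone moved by over 1.5 times with at most 10% mitochondrial UMIs (334 of 2790 counted), 1 draw of 1000 UMIs a cell (90 of 1657) and 1 of 3000 (242 of 2997). They did so too when ranking by Cyp2e1 and Cyp2f2 alone (92 of 2292) and in the mitochondria-rich cells alone (75 of 2247). That last setting was added after seeing the data, as was a split at shares of 90% and 10% (191 and 171 of 2499 genes, 117 and 84 of them shared). Fewest calls were shared by the draw of 1000 UMIs, 41 of the 212 and 16 of the 157, and 11 of the portal genes changed side there. The pericentral median of 3.004 was 2.05 at 10% mitochondrial UMIs, 1.46 and 2.34 in the draws of 1000 and 3000 UMIs, and 2.61 with cells ranked by Glul, Oat, Sds and Hal. The periportal median of -1.41 was -0.88, -0.67 in the draw of 1000, -0.84 with 2 zones and -0.94 under that ranking. Both medians kept their sign in every alternative. The log2 ratio changed sign, among others, for Ctnnbip1 (0.0070 with the 5 genes at 2%) and Hsd17b6 (0.077 under the 4-gene ranking). It also changed sign for Ifit1 (-0.93 without the deepest cells) and Eif2s3y (0.10 with at least 20 split UMIs and 0.46 in the mitochondria-rich cells). Genes under 2-fold changed sign as well. In the mitochondria-rich cells alone the central over portal ratio of Mup20 was 0.874 in place of 1.29. That of Zfp36 was 1.41 in place of 0.731, and that of Otc 0.887 in place of 1.15. The causes were not tested. Of 1700 values of 108 genes, 1227 stayed within their counting interval and 468 moved beyond it. These counts do not give the side on which a value lay. Leaving out the highest doublet scores took 2 members and no called gene. No paired analysis was possible because each group has 1 library.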
